A study of Mus musculus with 6 samples.

Results

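The fibroblast growth factor (FGF) module was examined in fetal testes of mice whose Sertoli cells, the supporting cells around the germ cells, were given an always active form of NOTCH1. Its members were all array probes whose platform symbol was a numbered FGF gene, an FGF receptor gene (Fgfr1 to Fgfr4, Fgfrl1), or one of a set of feedback and target genes (the Sprouty and Spred genes, Dusp6, Etv1, Etv4, Frs2 and Frs3). This rule took 63 of 45281 probes, for 37 of 19057 genes with a symbol of their own, and of the genes it lists only Spry1 and Frs2 had no probe here. Overexpressors were Amh-cre;RosaNICD/+ fetuses, in which the Amh-cre transgene recombines a floxed allele in Sertoli cells and so starts expression of the NOTCH1 intracellular domain from the Rosa locus. Controls were RosaNICD/+ littermates, which carry the same conditional allele and no Cre, so an effect of Amh-cre itself and one of active NOTCH1 cannot be told apart. All fetuses were taken at embryonic day 14.5 from a B6 and CD1 mixed background, and a sample was the testis pair of 1 fetus, freed of the mesonephros. Each of 3 dams gave 1 overexpressor and 1 control, and each sample was hybridised to an Illumina BeadChip.

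FGF ligands bind receptor tyrosine kinases on the cell surface together with heparan sulphate, and the adaptor FRS2 or FRS3 passes the signal to the RAS to ERK kinase cascade. ERK signalling induces ETS transcription factors such as ETV4 and ETV5 as well as its own inhibitors: Sprouty and Spred proteins act on the cascade upstream of ERK, and DUSP6 removes the activating phosphates from ERK. In the mouse XY gonad FGF9 acts through FGFR2 to promote Sertoli cell fate against WNT4, and it also acts on male germ cells. The comparison asked whether transcripts of this system differ in the whole testis when NOTCH1 is held active in Sertoli cells.

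Between 19459 and 20285 probes per array were above background (detection p under 0.05), with a median of 41 to 42 beads behind each probe. Notch1, with its only probe, stood at 8.97, 8.61 and 8.87 on the log2 intensity scale in overexpressors 1 to 3, against 8.32, 7.71 and 7.98 in controls 1 to 3 (adjusted p = 0.162 in limma). The NOTCH target Hey1 stood at 11.17, 10.84 and 10.87 in overexpressors, against 9.82, 9.70 and 9.55 in controls (adjusted p = 0.00878 in limma). Of the markers of tissues and cells in the testis, 9 of 10 Sertoli, 9 of 10 germ cell and 5 of 6 fetal Leydig genes were measured. Of 5 granulosa markers, Foxl2, which defines granulosa cells, and Fst were not above background on 3 arrays. The other 3 (Wnt4, Rspo1 and Irx3) were above background on all 6. Of 4 adrenal cortex markers, Cyp21a1, which defines that tissue, was not above background on 3 arrays. The other 3 (Mc2r, Cyp11b1 and Mrap) were above background on all 6. The number in a sample's name is its dam.

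Most of the module was dim, and so was most of the whole array. Of the module's 63 probes, 32 were above background on no array, 9 on 1 or 2 arrays, 8 on 3 to 5 arrays and 14 on all 6. Those on no array were 50.8% of the module and 45.5% of the whole array. On the whole array 16579 of 45281 probes were above background on all 6. Among the probes tested below, 14 of 22 in the module were on all 6, against 83.4% of all 19889. Probes above background on at least 3 arrays made up 34.9% of the module and 43.9% of the whole array. By gene, 14 of 37 were above background on no array: the ligand genes Fgf2, Fgf3, Fgf4, Fgf6, Fgf7, Fgf16, Fgf18 and Fgf20, the hormone-like Fgf23, the intracellular FGF genes Fgf11, Fgf12 and Fgf14, the receptor gene Fgfr3 and the feedback inhibitor gene Spry2. A further 7 genes (Fgf5, Fgf15, Fgf21, Fgfr1, Fgfr4, Spred2 and Spred3) reached this level on 1 or 2 arrays at most. A probe below background gives only an upper bound on its transcript, and different probes of 1 gene differed in this: Fgf10, Etv1, Fgfr2, Fgf1, Fgf8, Fgf17 and Fgf22 each had a probe above background on 3 or more arrays and at least 1 on none. The dot map of detection shows the array on which each probe was seen.

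**Figure D1:**
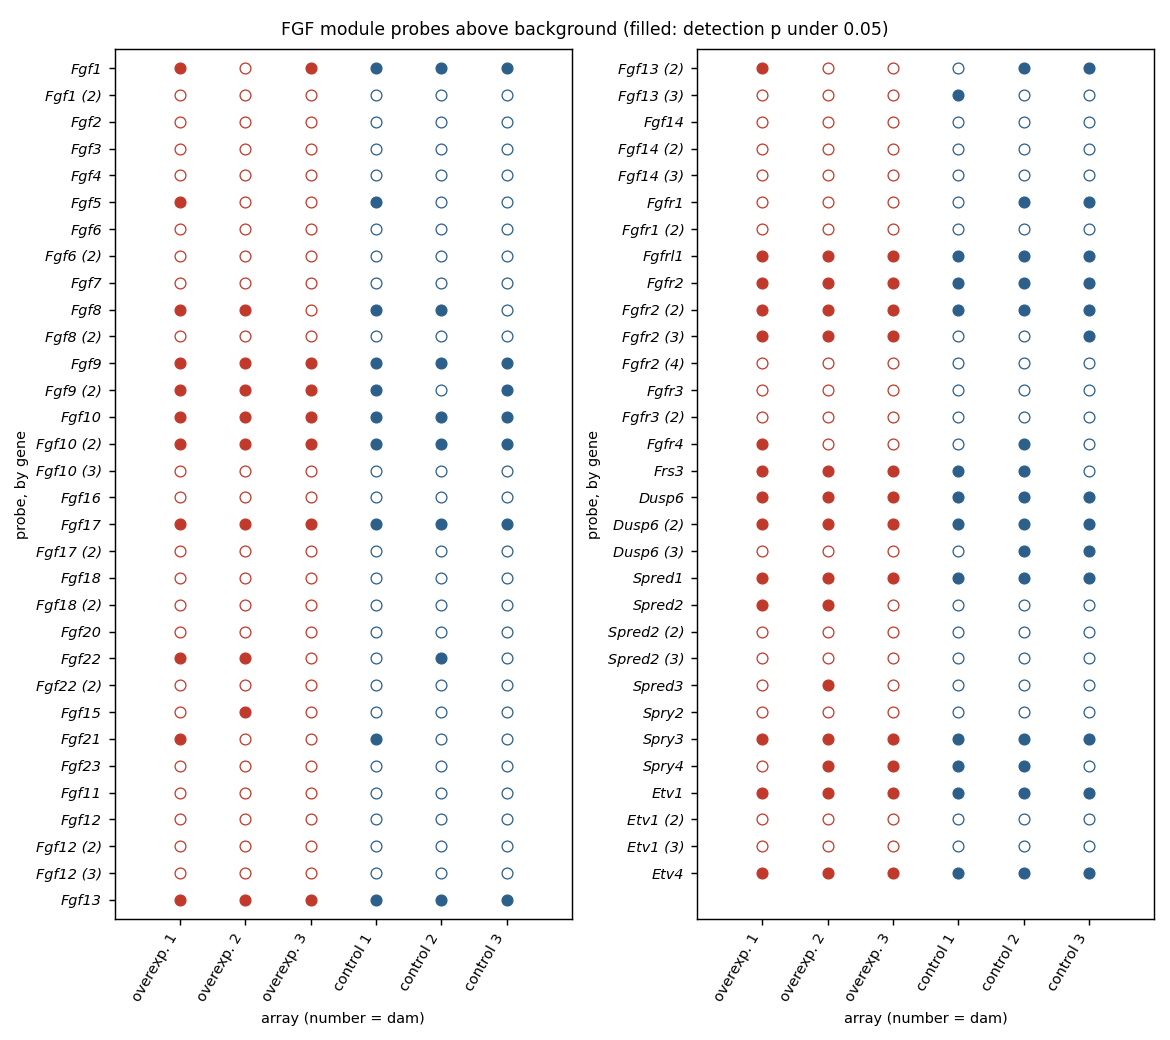
Detection of the 63 module probes (rows, by gene; a number in brackets marks further probes of a gene) on 6 arrays (columns; red, overexpressors 1 to 3; blue, controls 1 to 3). Filled circles are probes with a detection p under 0.05, and 32 rows have no filled circle.

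The tests below cover the 22 probes, of 16 genes, that were above background on at least 3 of the 6 arrays, and not the whole module. None of the 22 passed limma's moderated test at an adjusted p under 0.05, where 0.568% of all 19889 probes tested did (113 probes). At an unadjusted p under 0.05 there was 1 of 22, against 9.5% of all probes tested. With the dam as a block 0 of 22 passed as well, against 0.789% of all probes tested, and 3 of 22 had an unadjusted p under 0.05, against 14.7%. In 0 of 22 did the overexpressor and control arrays separate without overlap, against 14.6% of all probes tested, 7.57% higher and 7.01% lower. The median log2 fold change of the 22 was -0.053, beside -0.003 over all probes tested. In overexpressors 10 of the 22 were higher and 12 lower, where 49.3% of all probes tested were higher. In size the median was 0.17 and the largest 0.42, beside a median of 0.14 over all probes tested, and 0 of 22 differed by over 1.5-fold, against 3.79% of all. The 95% interval of the fold change lay within 2-fold for all 22 probes and within 1.5-fold for 12 of them. These intervals are not adjusted for the number of probes. They describe intensity after an offset of 16 was added, which shrinks the fold changes of dim probes. For those probes they set no 2-fold limit on the transcript.

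**Figure D2:**
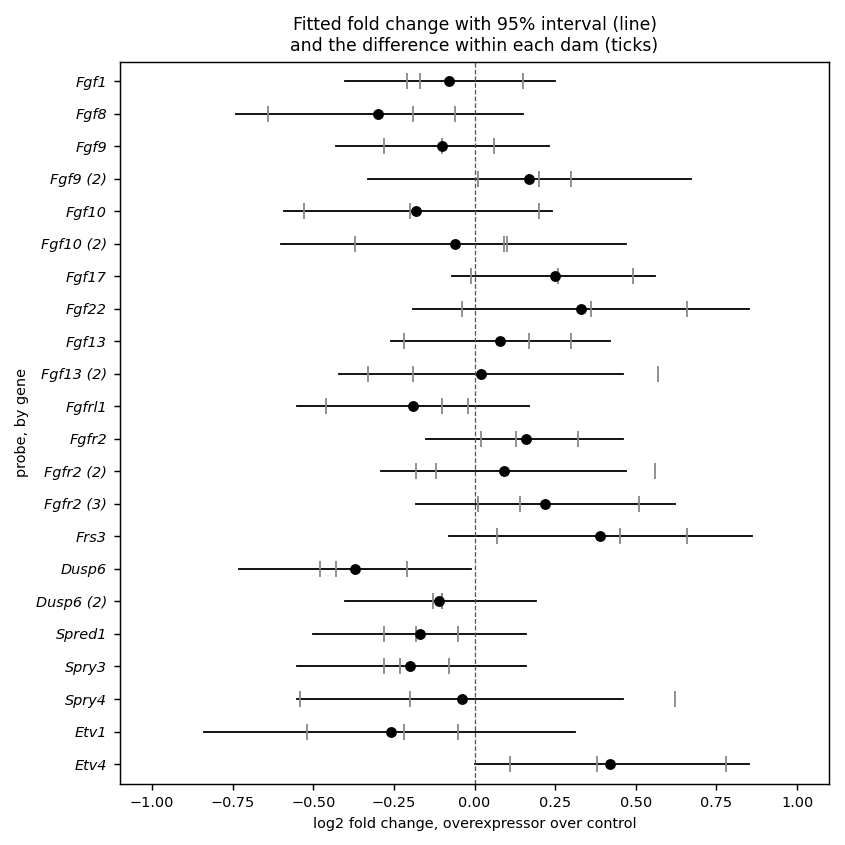
Log2 fold change of the 22 tested probes (points, overexpressor over control) with the 95% interval of limma's fit (lines) and the difference within each dam (grey ticks, 3 per probe). The intervals include 0 except that of the brightest Dusp6 probe, from -0.73 to -0.01, and Etv4 lies furthest to the right at 0.42.

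Fgf9, the ligand with the best known role in the testis, was read by a pair of dim probes. Its brighter probe (ILMN_2648289) had log2 intensities of 5.24, 5.40 and 5.54 in overexpressors 1 to 3, against 5.51, 5.34 and 5.64 in controls 1 to 3. The raw signal was only 1.24 to 1.32 times the median of undetected probes on the same array, although the probe was above background on all 6. Overexpressors and controls overlapped throughout, and the difference within a dam was -0.28, 0.06 and -0.10 for dams 1 to 3. The log2 fold change was -0.10 ± 0.14 (SE; adjusted p = 0.881 in limma), with a 95% interval of 0.74 to 1.17 in fold of intensity, not of transcript. The second probe (ILMN_1221265), designed to another transcript record, stood at 5.22, 5.07 and 5.75 in overexpressors, against 5.21, 4.87 and 5.46 in controls, and was not above background in control 2. Here the overexpressor was the higher littermate in each dam, by 0.01, 0.20 and 0.30, and dam 3 had the brightest fetus of both groups. Its log2 fold change was 0.17 ± 0.22 (adjusted p = 0.873), so the pair differed in sign and neither probe passed. In these whole testes fewer cells of a type and less RNA per cell cannot be told apart. Of 10 Sertoli markers 9 were measured, 5 higher and 4 lower in overexpressors, and their mean log2 intensity was 9.92 to 10.28 in overexpressors and 9.96 to 10.27 in controls. Their summed intensity was 40904 to 43541 in overexpressors and 26706 to 31326 in controls, and the 1 marker that rose was Cst9, a cystatin gene, by 0.83 ± 0.13 on the log2 scale (adjusted p = 0.0358). Cldn11 (1.08 ± 0.21) and Aard (0.44 ± 0.12) were higher without passing, Amh stood at -1.24 ± 0.38, and Sox8 stood at -0.95 ± 0.17 and fell when dam was a block (adjusted p = 0.0271). The part of these markers in the FGF values was not tested.

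Among the other secreted ligands, Fgf10, which signals from mesenchyme to epithelium in many organs, was above background on all 6 arrays with both tested probes. Its log2 intensities were 7.14, 6.77 and 7.46 in overexpressors, against 7.33, 7.30 and 7.26 in controls, and the second probe read 7.08, 6.32 and 7.18 in overexpressors and 6.99, 6.70 and 7.08 in controls. On both probes overexpressor 2 was the lowest of the 6 fetuses. The fits gave -0.18 ± 0.18 (adjusted p = 0.832) and -0.06 ± 0.23 (adjusted p = 0.96). Fgf17, a member of the FGF8 subfamily, had log2 intensities of 5.50, 5.62 and 5.30 in overexpressors, against 5.24, 5.13 and 5.31 in controls. The overexpressor was higher in dams 1 and 2 and level with its littermate in dam 3, and the log2 fold change was 0.25 ± 0.14 (adjusted p = 0.648). Fgf8 itself, an early patterning ligand, stood at 4.96, 4.96 and 4.79 in overexpressors and 5.16, 5.60 and 4.85 in controls, lower in each dam (-0.30 ± 0.19; adjusted p = 0.695). Both fetuses of dam 3 were below background for Fgf8, and without control 2 the value was -0.10, without control 3 -0.47. Fgf22 stood at 5.20, 5.72 and 4.78 in overexpressors and 4.84, 5.06 and 4.82 in controls (0.33 ± 0.23; adjusted p = 0.722), above background in 2 overexpressors and 1 control. Its value was 0.08 without overexpressor 2, 0.55 without overexpressor 3, 0.11 without background correction and 0.08 in the authors' processed table. Without background correction and in that table Fgf17 stood at 0.08 and 0.06, and Fgf8 at -0.10 and -0.13. Fgf1 stood at 5.15, 4.83 and 5.07 in overexpressors and 5.0, 5.05 and 5.24 in controls (-0.08 ± 0.14; adjusted p = 0.92). Of the 3 hormone-like ligand genes, which act at a distance with Klotho co-receptors, none was tested: Fgf15 was above background in overexpressor 2 alone, Fgf21 in both fetuses of dam 1, and Fgf23 in none. Fgf5 was likewise above background only in the fetuses of dam 1.

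Fgf13, an intracellular FGF that binds voltage-gated sodium channels and no FGF receptor, was bright. Its log2 intensities were 9.55, 9.33 and 9.15 in overexpressors, against 9.25, 9.16 and 9.38 in controls. The groups overlapped, the overexpressor was the higher littermate in dams 1 and 2 and the lower in dam 3, and the log2 fold change was 0.08 ± 0.15 (adjusted p = 0.919). A dim second probe stood at 0.02 ± 0.19 (adjusted p = 0.985).

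Among receptors Fgfr2, which encodes the receptor for FGF9 in fetal Sertoli cells, was above background on all 6 arrays with a pair of probes. Its brightest probe (ILMN_1225071) had log2 intensities of 11.55, 11.40 and 11.49 in overexpressors 1 to 3, against 11.24, 11.26 and 11.47 in controls 1 to 3. Raw signals were 24.8 to 32.8 times the median of undetected probes. The overexpressor was the higher littermate by 0.32, 0.13 and 0.02, and the groups overlapped only through control 3. The mean was 11.48 ± 0.08 in overexpressors and 11.32 ± 0.13 in controls (SD, n = 3 each), and the log2 fold change of 0.16 ± 0.13 did not pass (adjusted p = 0.784), with a 95% interval of 0.904 to 1.37 in fold. A pair of dimmer Fgfr2 probes gave 0.09 ± 0.17 (adjusted p = 0.921) and 0.22 ± 0.17 (adjusted p = 0.774), and another was above background on no array. Fgfrl1, a receptor-like protein without a kinase domain, stood at 8.16, 8.28 and 8.60 in overexpressors, against 8.62, 8.39 and 8.61 in controls. It was lower in each dam, by 0.46 in dam 1 and by 0.10 and 0.02 in dams 2 and 3 (-0.19 ± 0.16; adjusted p = 0.776). The brighter Fgfr1 probe was above background in controls 2 and 3 and in no overexpressor. Its log2 intensities were 4.43, 4.40 and 4.93 in overexpressors and 4.71, 5.33 and 5.11 in controls. Overexpressors and control 1 were at background, so no bound on the fold can be given, and the probe was not tested. Another Fgfr1 probe was above background on no array. Fgfr4 was above background in overexpressor 1 and control 2 only.

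Frs3, which encodes a membrane-anchored adaptor between FGF receptors and RAS signalling, stood at 5.64, 5.46 and 5.44 in overexpressors, against 5.58, 5.01 and 4.78 in controls. The 3 overexpressors lay close together while the controls spread, and control 3 was below background. The overexpressor was the higher littermate by 0.07, 0.45 and 0.66, and the log2 fold change was 0.39 ± 0.21 (adjusted p = 0.619; blocked on dam, 0.308). The value was 0.62 without control 1 and 0.22 without control 3, and 0.13 without background correction and 0.09 in the authors' processed table.

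Among the tested probes of feedback inhibitor genes, the largest difference was in Dusp6, which encodes the ERK phosphatase induced by FGF signalling. Its brightest probe (ILMN_2925711) had log2 intensities of 10.51, 10.34 and 10.82 in overexpressors 1 to 3, against 10.94, 10.82 and 11.03 in controls 1 to 3. The brightest overexpressor and the dimmest control met at 10.82, so the groups just touched, and within dams the overexpressor was below its littermate by 0.43, 0.48 and 0.21. The mean was 10.56 ± 0.25 in overexpressors and 10.93 ± 0.10 in controls (SD, n = 3 each). The log2 fold change was -0.37 ± 0.16, an unadjusted p of 0.0446 that did not hold over all probes tested (adjusted p = 0.51 in limma; blocked on dam, 0.252). On 1 array the standard error of the bead mean was 3.70 to 4.77% of the signal, from 36 to 44 beads. The second probe (ILMN_1248537) read 8.50, 8.30 and 8.44 in overexpressors and 8.60, 8.43 and 8.54 in controls, a difference of -0.10, -0.13 and -0.10 within dams and -0.11 ± 0.13 overall (adjusted p = 0.86). A further, dim probe was above background in controls 2 and 3 only, so no bound on its fold can be given. All 3 probes read lower in overexpressors in every dam, the dim one near background. Their sizes ranged widely, and neither tested probe passed.

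Upstream sequence is shown for Fgf9, Fgfr2 and Dusp6, the ligand, receptor and feedback gene described above, because active NOTCH1 reaches DNA through the protein RBPJ and ERK signalling through ETS factors. Each is the stretch of 250 bases before the gene start in the RefSeq table for GRCm38.p6, written 5′ to 3′ on the gene's strand in lower case, with any match to TGGGAA, the core that RBPJ binds, or to the ETS motif CCGGAAGT, on either strand, in capitals. The windows are chr14:58072436-58072685 (+) for Fgf9, chr7:130266809-130267058 (-) for Fgfr2 and chr10:99262981-99263230 (+) for Dusp6.
Fgf9: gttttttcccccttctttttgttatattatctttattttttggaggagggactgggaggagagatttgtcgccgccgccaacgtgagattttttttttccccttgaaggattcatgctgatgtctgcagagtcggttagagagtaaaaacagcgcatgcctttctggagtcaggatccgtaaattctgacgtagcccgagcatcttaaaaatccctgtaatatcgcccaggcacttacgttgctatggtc
Fgfr2: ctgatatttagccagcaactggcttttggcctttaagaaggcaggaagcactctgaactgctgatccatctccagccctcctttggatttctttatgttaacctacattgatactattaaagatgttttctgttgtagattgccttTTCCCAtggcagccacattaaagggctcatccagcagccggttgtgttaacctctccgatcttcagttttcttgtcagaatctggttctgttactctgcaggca
Dusp6: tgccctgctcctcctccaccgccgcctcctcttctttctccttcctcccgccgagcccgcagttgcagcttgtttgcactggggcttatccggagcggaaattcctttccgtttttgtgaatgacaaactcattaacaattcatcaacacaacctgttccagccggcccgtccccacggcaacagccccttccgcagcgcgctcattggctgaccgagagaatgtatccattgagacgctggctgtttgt
Only the Fgfr2 window held a match, 1 copy of TGGGAA read on the opposite strand and starting at position -104 from the gene start. Matches were counted in 35 such windows, for 27 of the 37 module genes. Fgf1 and Spry4 were left out of the module's count. TGGGAA was in 6 of the 35, against 21.6% of all 32851 windows, and CCGGAAGT in 1 of 35, that of Fgfrl1, against 2.88%. No match overlapped another in the 3 windows shown. A match is a run of letters and says nothing of binding, and no match says only that these letters are not in this window.

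The other tested feedback inhibitor genes were Spred1, Spry3 and Spry4. Spred1, a RAS to ERK pathway inhibitor of the Sprouty-related family, stood at 10.23, 10.18 and 10.51 in overexpressors, against 10.51, 10.36 and 10.56 in controls. The overexpressor was the lower littermate in each dam while the groups overlapped, and the log2 fold change was -0.17 ± 0.14 (adjusted p = 0.784). Spry3, of the Sprouty family, stood at 5.31, 5.14 and 5.58 in overexpressors, against 5.54, 5.42 and 5.67 in controls (-0.20 ± 0.16; adjusted p = 0.763), again lower in each dam. Spry4 read 4.61, 4.97 and 5.12 in overexpressors and 5.15, 5.18 and 4.50 in controls (-0.04 ± 0.22; adjusted p = 0.969), with opposite directions between dams. All 5 tested probes of feedback inhibitor genes, from 4 genes with Dusp6 read by 2, were lower in overexpressors. Of all probes tested 49.3% were higher. The median log2 fold change of the 5 was -0.17, and 0 of 5 passed. Spred2 was outside the test: its brightest probe read 4.99, 5.04 and 4.65 in overexpressors and 4.44, 4.53 and 4.47 in controls, above background in overexpressors 1 and 2 and in no control. It was higher in each dam, by 0.55, 0.51 and 0.18, but its values lay too near the detection limit for a fold bound above 1.

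The module's ETS genes lay on opposite sides of 0. Etv4, an ETS factor induced by FGF and other receptor tyrosine kinase signals, stood at 6.68, 6.64 and 6.41 in overexpressors, against 5.89, 6.53 and 6.03 in controls. The overexpressors lay close together, and control 2 reached into their range, so that the groups overlapped. The overexpressor was the higher littermate by 0.78, 0.11 and 0.38, and the mean was 6.58 ± 0.14 in overexpressors and 6.15 ± 0.34 in controls (SD, n = 3 each). The log2 fold change of 0.42 ± 0.19 was the largest in size among the module's tested probes. It did not pass (adjusted p = 0.527 in limma, and 0.302 blocked on dam), and was 0.20 without background correction and 0.18 in the authors' processed table. Etv1, of the same subfamily, stood at 8.18, 7.40 and 8.32 in overexpressors, against 8.40, 7.92 and 8.37 in controls. It was lower in each dam (-0.26 ± 0.25; adjusted p = 0.815), and both fetuses of dam 2 were the dimmest of their group.

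**Figure D3:**
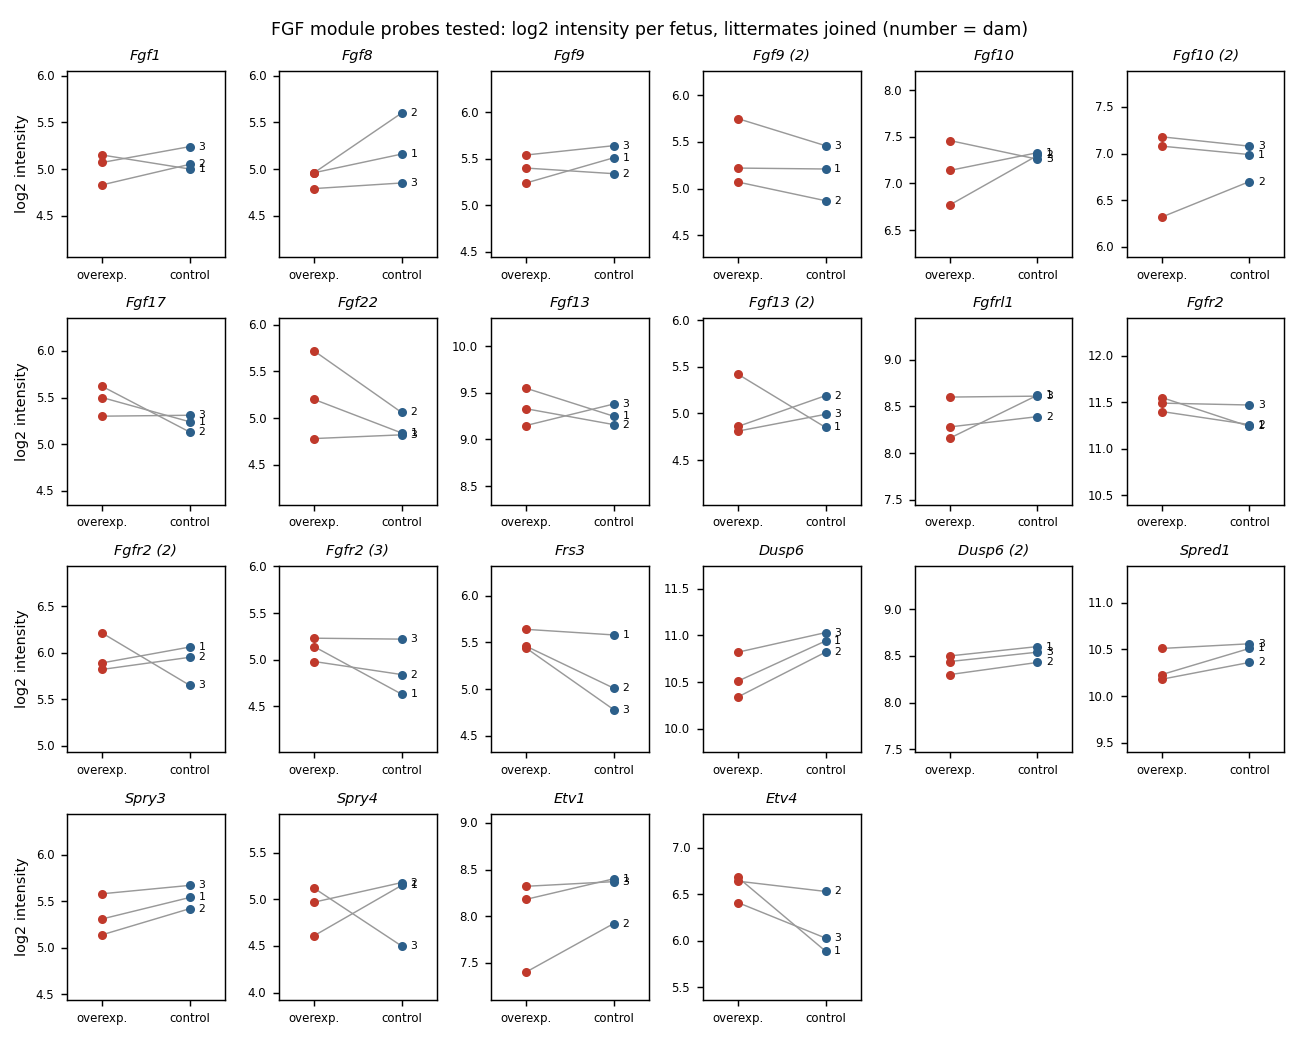
Log2 intensity of the 22 tested module probes in each fetus (red, overexpressors; blue, controls; grey lines join littermates, and the number beside a control is the dam). Each panel spans 2 log2 units; the Dusp6, Spred1 and Spry3 lines all rise towards the control, and the Etv4 and Frs3 lines fall towards it, and 12 of the 22 panels have all 3 lines sloping the same way.

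Of the 22 probes, 12 had the same direction in all 3 dams, 5 higher and 7 lower, where 37.7% of all probes tested did, 18.4% higher and 19.3% lower. These 12 belong to 10 of the 16 genes tested, since Fgfr2 and Dusp6 each had more than 1 such probe, and probes of 1 gene are not independent. Within single dams the median difference of the 22 was -0.05, -0.13 and -0.03 for dams 1 to 3. The median standard deviation within a group was 0.22 for the 22 probes and 0.20 for all probes tested.

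Genes outside the module that act with it were taken as 4 lists. In the 12 measured genes of other ERK feedback and ETS-linked targets, 1 rose, 0 fell and 11 did not pass, with a median log2 fold change of -0.06. The gene that rose was Flrt1, which encodes a leucine-rich repeat membrane protein of a family that binds FGF receptors. Its log2 intensities were 9.42, 9.33 and 9.10 in overexpressors 1 to 3, against 8.23, 8.21 and 8.52 in controls 1 to 3. All overexpressors lay above all controls, and the log2 fold change was 0.96 ± 0.15 (adjusted p = 0.0397 in limma). That call was lost when dam was a block (adjusted p = 0.0674), when dim probes were kept in (0.0761) and when any 1 array other than overexpressor 3 was left out (up to 0.188). Its family members Flrt2 (0.31 ± 0.21) and Flrt3 (-0.02 ± 0.16) did not pass, named after their values were seen.

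Of the 12 genes 5 were higher and 7 lower in overexpressors. Ranked by p, Flrt1 was followed by Ier3, Egr1 and Il17rd, all lower, then by Dusp5, higher, and Etv5, lower. Ier3, an immediate-early gene, stood at 7.72, 7.79 and 7.73 in overexpressors, against 8.27, 8.54 and 7.93 in controls (-0.50 ± 0.17; adjusted p = 0.386). Egr1, an immediate-early transcription factor gene downstream of ERK, stood at 10.36, 10.04 and 10.64 in overexpressors, against 10.99, 10.57 and 11.02 in controls (-0.51 ± 0.20; adjusted p = 0.457). Named after their values were seen, Il17rd, a membrane inhibitor of FGF signalling, stood at -0.29 ± 0.12 (adjusted p = 0.503) and Etv5, the closest relative of Etv4, at -0.37 ± 0.18 (adjusted p = 0.571). Overexpressors lay below controls without overlap for Ier3, Il17rd and Etv5, as for 7.01% of all probes tested, and with overlap for Egr1. Others lay on the other side of 0 and were likewise named after their values were seen. Dusp5, another ERK phosphatase gene, stood at 0.34 ± 0.15 (adjusted p = 0.543), Phlda1 at 0.15 ± 0.16 and Errfi1 at 0.05 ± 0.14. Of 10 germ cell markers 9 were measured, 8 of them lower and 1 higher in overexpressors, and 0 passed (2 fell with dam as a block). Their mean log2 intensity was 8.65, 9.25 and 8.55 in overexpressors, against 9.34, 9.89 and 9.12 in controls. Summed intensity over these markers was 6178 to 10490 in overexpressors and 9149 to 14758 in controls, and Ddx4 and Dazl, which define germ cells, were above background in every fetus. Ddx4 stood at -0.24 ± 0.28 and Dazl at -0.05 ± 0.26, Pou5f1 at -0.16 ± 0.30 and Sall4 at 0.08 ± 0.23, while Nanos2 (-2.45 ± 0.45), Dnd1 (-1.06 ± 0.24) and Dppa3 (-0.78 ± 0.24) were the furthest from 0. Of 7 markers of mesonephric duct and epithelium 4 were measured, all with values below 0. Their summed intensity was 351 to 430 in overexpressors and 759 to 802 in controls, while Pax2 and Epcam were not above background on 3 arrays. Lhx1 (-1.38 ± 0.31) and Cdh1 (-0.93 ± 0.17) were the markers far from 0, and Pax8 (-0.03 ± 0.28) and Cdh16 (-0.02 ± 0.29) went both ways between dams. The part of either in the FGF and ERK values was not tested.

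Of 14 measured signal transduction genes 0 passed, and their median log2 fold change was -0.01. Map2k1, a kinase that activates ERK, stood at -0.20 ± 0.14, Sos2, an activator of RAS, at 0.23 ± 0.17 and Gab1, a docking protein, at 0.16 ± 0.13 (adjusted p from 0.716 to 0.764). Of 20 co-receptors, binding proteins and heparan sulphate genes 0 passed, with a median of 0.01. The heparan sulphate proteoglycan gene Gpc1 stood at 11.84, 11.79 and 12.02 in overexpressors, against 12.46, 12.28 and 12.40 in controls (-0.50 ± 0.13; adjusted p = 0.249). Sdc4, of the syndecan family, stood at 9.15, 9.37 and 9.69 in overexpressors, against 9.74, 10.47 and 10.24 in controls (-0.75 ± 0.22; adjusted p = 0.295). Both missed the threshold, and Hs6st2, a heparan sulphate sulphotransferase gene, stood at 0.41 ± 0.17 (adjusted p = 0.506). Gpc1 and Sdc4 were lower without overlap, and Hs6st2, Hs2st1 (0.21 ± 0.13) and Ext1 (0.15 ± 0.12), the last pair named after their values were seen, were higher without overlap, where 14.6% of all probes tested did not overlap. The Klotho co-receptor genes Kl and Klb were not above background on 3 arrays.

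Of 12 measured gonadal genes that earlier work linked to FGF9, 0 passed, and 1, Nanos2, fell with the dam as a block. Nanos2, an RNA-binding protein gene of male germ cells, stood at 6.45, 8.24 and 7.50 in overexpressors, against 9.60, 10.54 and 9.40 in controls (adjusted p = 0.0681, and 0.0142 with the block). It passed in 8 of 14 alternatives, among them those without background correction, with median scaling and with array weights. Stra8, a gate of meiotic entry, was above background in all 3 overexpressors and in no control, at least 9.2-fold higher. Its adjusted p was 0.0655 in limma, and it passed in 5 of 14 alternatives, among them median scaling and the stricter filter. Stra8 met the filter on dim probes only through the overexpressors, where it was high, so these p-values are no support for the difference. Amh, the Sertoli hormone gene, stood at -1.24 ± 0.38 (adjusted p = 0.32). Sox9, the Sertoli fate gene that FGF9 sustains, stood at 0.15 ± 0.18 and Wnt4, its opponent, at 0.18 ± 0.13, both named after their values were seen and neither past the threshold.

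**Figure D4:**
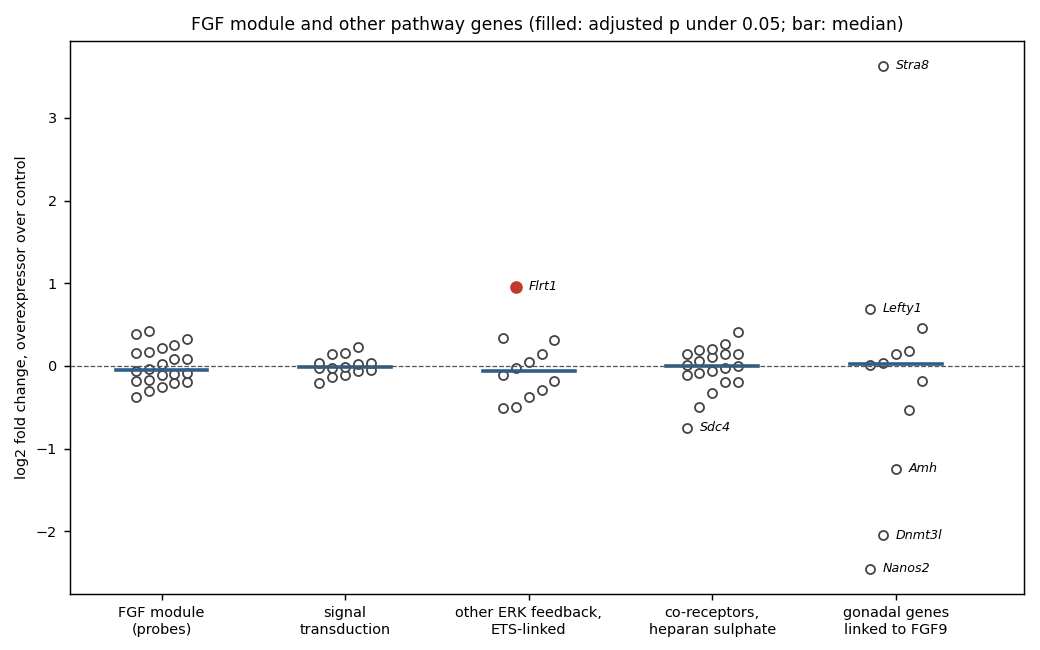
Log2 fold change, overexpressor over control, of the 22 tested module probes (left) and of the genes of 4 other lists (14, 12, 20 and 12 genes; 1 probe per gene), with blue bars at the medians. Only Flrt1 is filled (adjusted p under 0.05); points beyond 0.65 in size are named, and Stra8 is drawn at its fitted value although controls were below background.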

How the data were processed

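Per the file headers, the deposited table holds each probe's mean bead intensity on a linear scale, neither background-subtracted nor normalized, with the deposited bead count, the deposited standard error of the bead intensity and a deposited detection p-value against the array's negative controls. GenomeStudio 2010.3 was used, per the submitters' processing notes. The authors' processed intensity table equals the raw signal times 1 factor per array (0.855 to 1.15).

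Intensities were corrected and quantile-normalized with neqc (offset 16, background from the detection p-values) and put on the log2 scale in limma 3.58.1 under R 4.3.3. Probes with a detection p under 0.05 on 3 or more of the 6 arrays were tested (19889 probes). Groups were compared by limma's two-sided moderated test with no dam term, p-values being Benjamini-Hochberg adjusted over all probes tested, with the threshold at 0.05. Log2 fold changes are overexpressor over control. The fit was tested on simulated data. Probes were named from the platform annotation, and all 63 module probes matched the GRCm38.p6 gene table by Entrez identifier. The brightest probe stood for a gene in the lists. A bound sets the brighter group's mean against, per array of the dim group, the higher of the probe's signal and the lowest signal among detected probes. Per-array values are given for Fgf9, Dusp6 and members with an unadjusted p under 0.05, and beyond that rule for other measured members; from each list, genes past the threshold and the 3 with the smallest unadjusted p are named. Module members and lists were chosen with earlier results of these data known.

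Equal dam numbers mark littermates in the labels, and littermates deviated from their group means together (correlations over probes of 0.252, 0.426 and 0.304), so a fit blocked on dam was an alternative. Fetuses were separate animals, and the number of arrays limits the precision.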

Additional observations from a re-analysis of the deposited data

How the results depend on the processing

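None of 300 values of the 22 module probes under 14 alternatives passed the threshold (smallest adjusted p = 0.252, Dusp6 with the dam as a block), and the count of changed module probes stayed at 0 in each. With the dam as a replicate block 0 module probes and 157 probes in all changed, and among the pathway lists 1 gene, Nanos2 in place of Flrt1. All probes changed numbered 67 with no filter on dim probes, 202 with a trended prior variance and 32 to 101 with 1 array left out, beside 113. Changed pathway genes, 1 in the report, numbered 0 with no filter, 2 with no background correction or the authors' processed table, 3 with median scaling, the stricter filter or array weights, 4 with the trend and 0 to 3 with 1 array left out, always among Flrt1, Nanos2, Stra8, Gpc1 and Amh. The median of the module, -0.053, was 0.019 with no filter (63 probes), -0.106 with the stricter filter (14 probes) and -0.113 to 0.050 with 1 array left out, being above 0 only without overexpressor 2 among these. A detection p under 0.01 left 14 module probes on at least 3 arrays in place of 22. Of the 300 values 15 changed sign, none past the threshold. In the authors' processed table this was the dim Fgf13 probe (-0.02). With 1 array left out these were Fgf13 (-0.02, and -0.18 and -0.06 on its dim probe), Spry4 (0.10, 0.06 and 0.07) and Fgf1 (0.02). The rest, also with 1 array left out, were Fgf10 (0.00, 0.21 and 0.02), Etv1 (0.02), the second Fgf9 probe (-0.04) and a dimmer Fgfr2 probe (-0.03 both times). With 1 array left out, the values ran from -0.14 to 0.02 for Fgf1 and from -0.04 to 0.31 for the second Fgf9 probe. They ran from -0.35 to 0.00 and -0.22 to 0.21 for the Fgf10 probes and from -0.18 to 0.13 for the dim Fgf13 probe. For that dimmer Fgfr2 probe they ran from -0.03 to 0.17, and for Etv1 from -0.44 to 0.02. The causes were not tested. The brightest Dusp6 probe stayed between -0.51 and -0.26, Etv4 between 0.18 and 0.61 and the brightest Fgfr2 probe between 0.11 and 0.23. The slide as a block was not run, as the headers name no slide. Of the 63 module probes, the 32 above background on no array give only upper bounds.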
